A study of Homo sapiens with 6 samples.

Results

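PPFIA1, PEF1 and MYADM are 3 human genes whose counts were spread over their annotated transcripts differently in co-treated and control cells. They are 3 of the 46427 genes in the deposited gene table, and their 41 transcripts (21 of PPFIA1, 8 of PEF1 and 12 of MYADM) are part of 170322 in the transcript table. The 3 genes were chosen because their transcript shares differed between the groups, so the shares, transcript levels and gene totals below are a description and carry no test. Total RNA of the cell line MDA-MB-231/RR was sequenced, a form of the breast cancer line MDA-MB-231 that resists radiation. The co-treated group had 3 samples given ortho-topolin riboside (oTR), a plant cytokinin, together with melatonin, and the control group had 3 samples of the same cells. Doses, exposure times and what the control cells received are not given in the labels. All samples were grown in DMEM with serum and taken up with trypsin, and samples given 1 compound alone are not among those analysed here. The labels do not say that the samples of a group were separate cultures, so the p-values given for other genes measure only how far these samples scatter, which can be technical.

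A gene can give several RNAs through alternative start sites and alternative splicing, and these can differ in the encoded protein or only in the untranslated leader. PPFIA1 encodes liprin-alpha-1, a scaffold protein of focal adhesions that binds LAR-type receptor phosphatases and takes part in cell edge movement. PEF1 encodes peflin, a calcium-binding protein with EF hands that pairs with ALG-2 (PDCD6) at exit sites of the endoplasmic reticulum. MYADM encodes a membrane protein with MARVEL domains found in lipid rafts, where it is known to help target the small GTPase Rac1 to the cell surface.

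The following sequences cover a stretch where, judged by transcript length alone, the PPFIA1 transcripts that were high in co-treated cells may differ from NM_003626, on the plus strand of GRCh38. The capitals are a 30-base exon at chr11:70350994-70351023, which lies between the exons at chr11:70348189-70348420 and chr11:70354301-70354452 in GENCODE. It is coding in transcript ENST00000644155, its length is a multiple of 3, and it is absent from the GENCODE match of NM_003626. The lower-case letters are 30 bases of the exon on each side.
PPFIA1 with the exon: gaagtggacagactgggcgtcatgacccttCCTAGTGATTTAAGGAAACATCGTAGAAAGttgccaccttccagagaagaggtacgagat
PPFIA1 without the exon: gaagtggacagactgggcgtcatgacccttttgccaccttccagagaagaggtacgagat

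For MYADM, the transcripts that parted begin at different sites, so the 250 bases before both starts are shown as RefSeq gives them for GRCh38, plus strand. The first window lies before the start at 53867883, which held more of the counts in co-treated cells, and the second before the start at 53869391, which held more in control cells. The start of NM_001020819 at 53867865 falls inside the first window, so the last bases of that window belong to NM_001020819. Capitals mark GGGCGG on either strand, a motif bound by Sp1.
MYADM chr19:53867633-53867882: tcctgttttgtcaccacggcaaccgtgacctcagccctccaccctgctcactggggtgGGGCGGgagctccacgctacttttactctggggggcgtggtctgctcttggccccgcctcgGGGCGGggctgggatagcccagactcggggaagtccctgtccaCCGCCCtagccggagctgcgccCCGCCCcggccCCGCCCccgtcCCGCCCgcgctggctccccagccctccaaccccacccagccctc
MYADM chr19:53869141-53869390: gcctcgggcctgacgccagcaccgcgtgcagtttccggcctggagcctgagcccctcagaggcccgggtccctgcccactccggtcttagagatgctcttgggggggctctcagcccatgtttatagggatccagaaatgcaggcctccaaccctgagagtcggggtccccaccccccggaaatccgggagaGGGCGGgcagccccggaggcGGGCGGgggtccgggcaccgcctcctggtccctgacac

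The libraries held 50569611 to 72204161 estimated counts in the co-treated group and 56521572 to 72309015 in the control group. The label of the line was checked against its markers. The summed level of VIM, CD44, CAV1, EGFR and AXL, which MDA-MB-231 cells express strongly, was 4844 to 4949 normalized CPM (estimated counts scaled to a common library size) in co-treated cells and 4534 to 4676 CPM in control cells. The summed level of ESR1, PGR, CDH1, EPCAM and CLDN3, which these cells lack or hold at low levels, was 1.27 to 1.84 CPM in co-treated cells and 1.22 to 1.72 CPM in control cells. Of 6 markers of other cells, PTPRC and DCN were at 0 in all libraries, and the 6 together reached 6.66 to 7.07 CPM in co-treated cells and 6.56 to 7.12 CPM in control cells, most of it PDGFRB. The RNA came from bulk cells, so fewer cells holding a transcript and less of it per cell cannot be told apart.

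PPFIA1 spans chr11:70270687-70384405 on the plus strand of GRCh38. In co-treated cells most of its counts lay on transcripts other than NM_003626, and in control cells most lay on NM_003626. NM_003626 held 8.44%, 24.8% and 8.64% of the gene's counts in co-treated libraries 1, 2 and 3, against 82.1%, 71.0% and 90.5% in control libraries 1, 2 and 3. The groups did not overlap, and co-treated library 2 and control library 2 lay closest to each other. The mean share was 14.0% ± 9.41 in co-treated cells and 81.2% ± 9.81 in control cells (SD, n = 3 each), a difference of -67.2 percentage points. As a level, NM_003626 had 9.34, 26.4 and 9.44 CPM in co-treated libraries and 77.7, 66.4 and 84.4 CPM in control libraries.

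**Figure D1:**
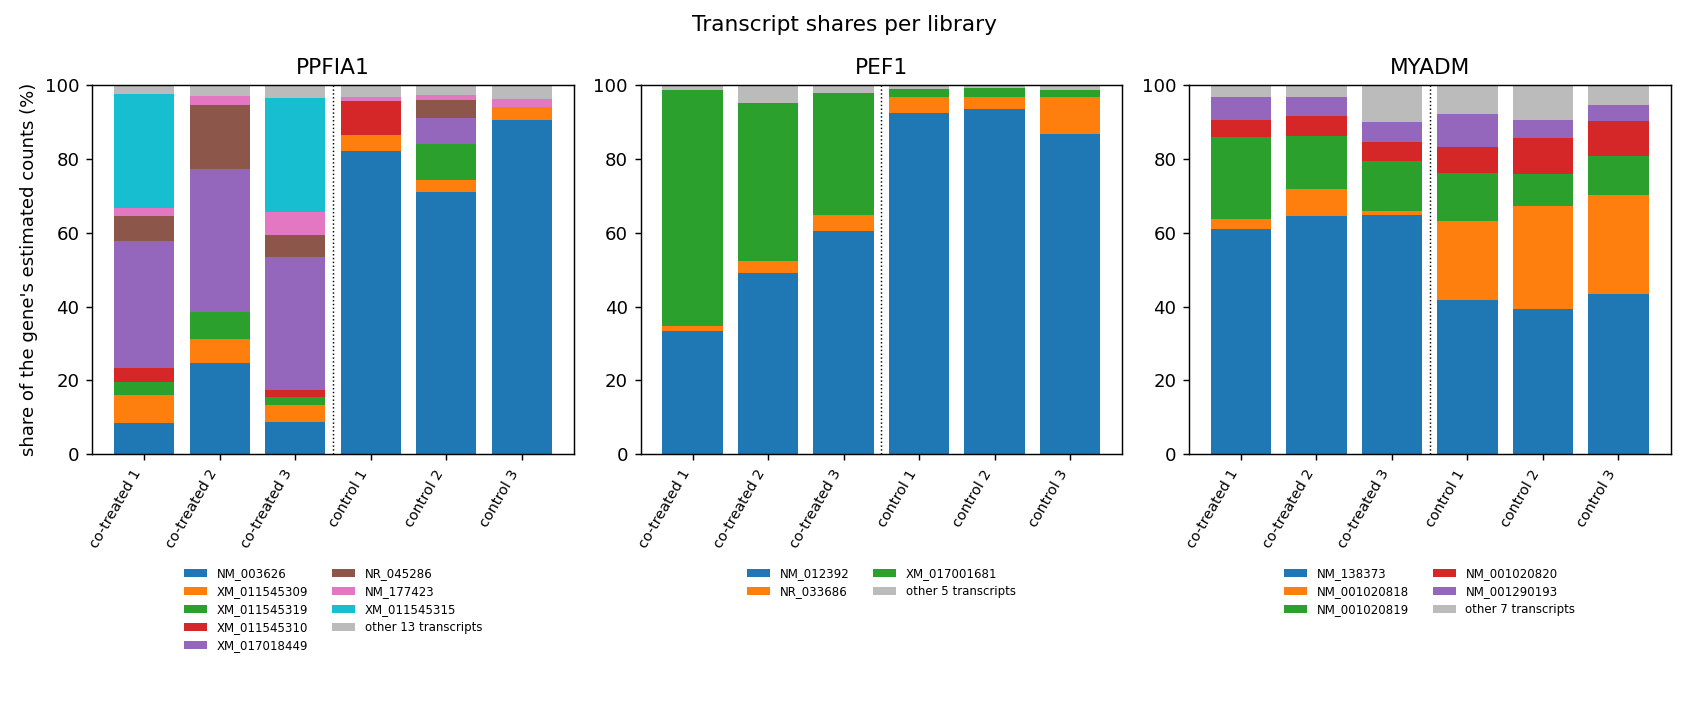
Stacked bars give the share of each gene's estimated counts (%, y axis) by transcript in the 3 co-treated and the 3 control libraries (x axis, a dotted line between the groups), for transcripts with at least 5% in any library and the sum of the others. NM_003626 makes up 71.0% or more of PPFIA1 in control cells and 24.8% or less in co-treated cells, and the PEF1 and MYADM bars also change make-up between the groups.

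The transcript with the largest single share of the PPFIA1 counts in co-treated cells was XM_017018449, a predicted RefSeq model that is 30 bases longer than NM_003626. It held 34.4%, 38.7% and 35.9% in co-treated libraries 1, 2 and 3, was listed at 0 in control libraries 1 and 3, and held 7.03% in control library 2. XM_011545315 held 30.9% and 30.8% in co-treated libraries 1 and 3 and was listed at 0 in co-treated library 2 and in all control libraries. These predicted models thus did not take the same share in every co-treated library. NR_045286, a non-coding record of the locus, held 6.55%, 17.3% and 6.09% in co-treated libraries, against 0.0571%, 5.05% and 0.0768% in control libraries. It was the co-treated library without XM_011545315, library 2, in which NR_045286 was highest.

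Other PPFIA1 transcripts also reached 5% in a library. XM_011545309 held 7.64%, 6.42% and 4.58% in co-treated libraries and 4.43%, 3.36% and 3.55% in control libraries, without overlap. NM_177423, whose annotated end lies upstream of that of NM_003626, held 2.22%, 2.24% and 6.12% in co-treated libraries and 1.18%, 1.20% and 2.09% in control libraries, also without overlap. XM_011545319 and XM_011545310 did overlap. XM_011545319 held 3.42%, 7.35% and 2.27% in co-treated libraries, and in control cells it held 9.65% in library 2 and was listed at 0 in the others. XM_011545310 held 3.90% and 1.88% in co-treated libraries 1 and 3 and 9.04% in control library 1, and was listed at 0 elsewhere. The other 13 transcripts together held 2.54% to 3.76% in any library, and 6 of the 21 were at 0 counts in all libraries.

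The lengths of the PPFIA1 transcripts were set against internal exons of the GENCODE transcripts ENST00000532504, ENST00000644155 and ENST00000648755 that the match of NM_003626 lacks. These exons are of 158, 75, 30, 63, 27 and 170 bases. Exons of other GENCODE transcripts and most changes of splice site were not searched, so other fits are possible. The exon models of the predicted transcripts were not used here, so a length that fits an exon is an inference from arithmetic and not an observed junction. The extra bases of XM_017018449 fit the 30-base exon printed above. Those of XM_011545319 fit that exon with the one of 63 bases (chr11:70365373-70365435), and those of XM_011545315 fit both with the one of 27 bases (chr11:70365941-70365967). NR_045286 fits the 30-base exon with another exon shortened by 19 bases. Its GENCODE match, ENST00000532504, holds both, and the shortening was taken from that match. The fit of NR_045286 was thus set in advance and adds nothing to the annotation. In all, 6 transcripts had a length that fits a combination with the 30-base exon, 2 of them at 0 counts. Their summed share was 75.3%, 63.4% and 75.1% in co-treated libraries, against 0.0571%, 21.7% and 0.0768% in control libraries. Transcripts with other annotated ends, such as NM_177423, or with no fitting combination, such as XM_011545310 (9.04% in control library 1), were left out of this sum. Whether they hold the exon was not determined. Over the co-treated libraries the sum varied less than XM_011545315 did alone and more than XM_017018449 did alone, and control library 2 stood apart from the other control libraries. The means were 71.3% ± 6.81 in co-treated cells and 7.29% ± 12.5 in control cells (SD, n = 3 each), a difference of 64.0 points, or 71.2 points without control library 2.

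PEF1 spans chr1:31629862-31644876 on the minus strand. In control cells nearly all of its counts lay on the reference mRNA NM_012392, and in co-treated cells they were divided between NM_012392 and the predicted model XM_017001681. XM_017001681 held 63.8%, 42.6% and 32.9% in co-treated libraries 1, 2 and 3, against 2.23%, 2.51% and 1.98% in control libraries. The control libraries lay within a narrow range, while the co-treated libraries were far apart from each other, with library 1 highest and library 3 lowest. The mean was 46.5% ± 15.8 in co-treated cells and 2.24% ± 0.263 in control cells (SD, n = 3 each), a difference of 44.2 points. NM_012392 held 33.3%, 49.0% and 60.6% in co-treated libraries and 92.5%, 93.5% and 86.7% in control libraries, without overlap.

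XM_017001681 is 3240 bases long, and NM_012392 is 1614 bases long. The predicted model is shorter by 3 bases at its annotated 5′ end, and the other ends are the same. Its further bases thus lie inside the gene, and they come to 1626 in whole length with those 3 bases to be added. None of the introns of the GENCODE match of NM_012392 has that length, with or without the 3 bases. The nearest are 1652 bases (chr1:31630843-31632494) and 1907 bases (chr1:31633315-31635221). Which bases the model adds was not determined here. NR_033686, a non-coding record that is 301 bases shorter than NM_012392, as long as the exon at chr1:31635222-31635522, held 1.47%, 3.44% and 4.32% in co-treated libraries and 4.17%, 3.13% and 10.1% in control libraries, and the groups overlapped. The other 5 transcripts held 0.827% to 4.97% together.

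As levels, NM_012392 had 13.7, 23.7 and 29.4 CPM in co-treated libraries and 47.9, 50.8 and 50.2 CPM in control libraries. XM_017001681 had 26.3, 20.6 and 16.0 CPM in co-treated libraries and 1.15, 1.36 and 1.15 CPM in control libraries. The co-treated library with the least NM_012392 had the most XM_017001681. Because XM_017001681 is the longer transcript, it collects more reads per molecule. By FPKM, which is per length, its share was 31.0% ± 14.1 in co-treated cells and 1.11% ± 0.137 in control cells (SD, n = 3 each), a difference of 29.9 points in place of 44.2 points.

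**Figure D2:**
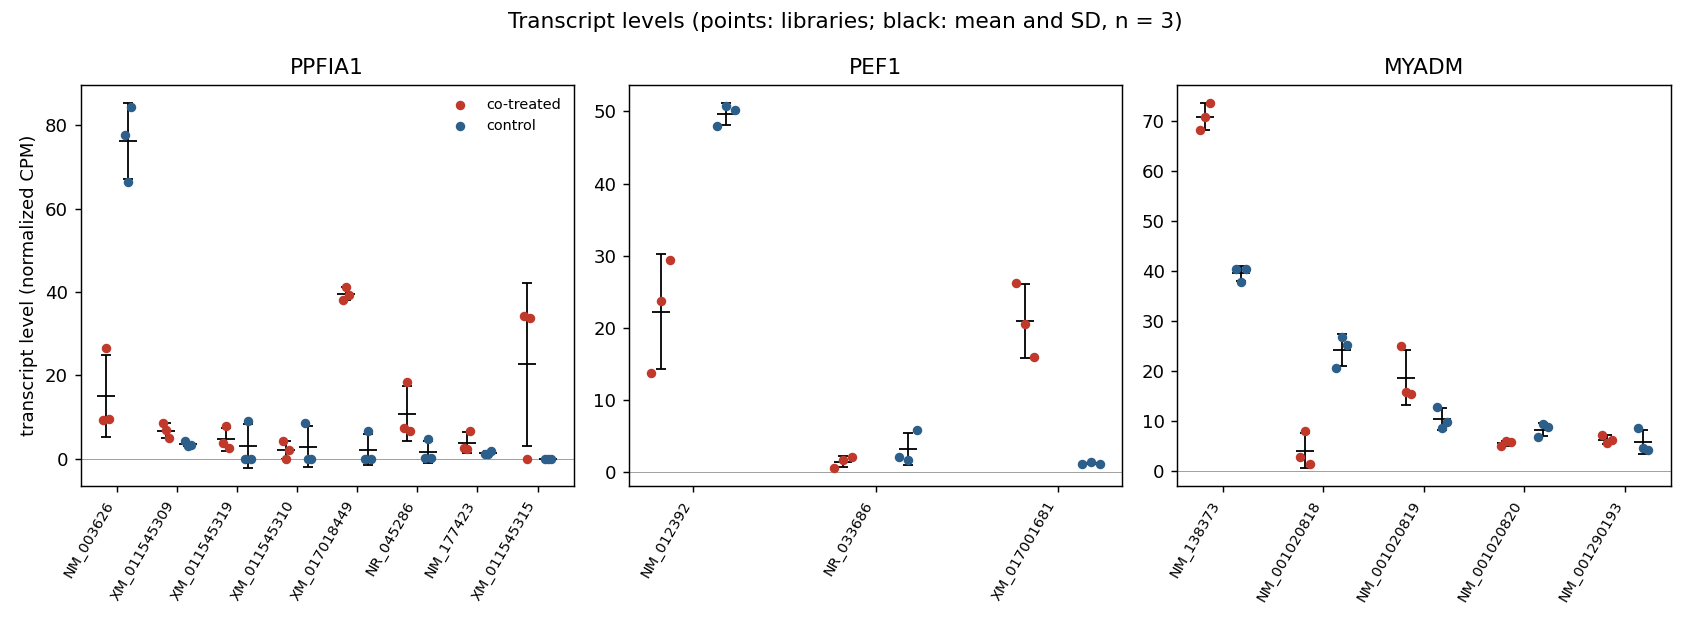
Points give the level of each transcript with at least 5% of its gene's counts in any library (normalized CPM, y axis), with co-treated libraries in red left of control libraries in blue, and black bars give the mean and SD (n = 3). NM_003626 and NM_012392 are lower in co-treated cells, and XM_017018449, XM_017001681 and NM_138373 are higher, without overlap of the groups.

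MYADM spans chr19:53865628-53876435 on the plus strand, and the 5 coding GENCODE transcripts examined share 1 coding stretch of 966 bases, chr19:53873530-53874495, inside 1 exon. Its 12 transcripts, all curated RefSeq records, differ in where they start and in the leader exons. In co-treated cells NM_138373 held 61.1%, 64.7% and 64.7% of the gene's counts, against 41.8%, 39.3% and 43.3% in control cells. The groups did not overlap, and the spread within each was small. The mean was 63.5% ± 2.07 in co-treated cells and 41.4% ± 2.04 in control cells (SD, n = 3 each), a difference of 22.0 points. NM_001020818 held 2.56%, 7.27% and 1.21% in co-treated libraries, against 21.3%, 27.9% and 27.0% in control libraries. Its 155 further bases over NM_001020821, which shares its start, equal the length of the intron at chr19:53869599-53869753. NM_001020819 held 22.3%, 14.3% and 13.5% in co-treated libraries and 13.2%, 8.88% and 10.4% in control libraries. Its groups came close but did not overlap. NM_001020820 held 4.49%, 5.46% and 5.05% in co-treated libraries and 6.97%, 9.71% and 9.39% in control libraries, and NM_001290193 overlapped between the groups.

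Summed by annotated start, MYADM counts lay more on 1 site in co-treated cells and less on the sites at 53869391 and 53866371. The 5 transcripts that start at 53867865 or 53867883 held 86.1%, 81.6% and 84.2% in co-treated libraries, against 59.1%, 51.9% and 55.6% in control libraries. Their summed level was 93.7 ± 3.79 CPM in co-treated cells and 53.0 ± 3.71 CPM in control cells (SD, n = 3 each). The 3 transcripts that start at 53869391 held 2.91%, 7.34% and 2.08% in co-treated libraries, against 22.7%, 32.4% and 28.1% in control libraries. Their summed level was 4.55 ± 3.05 CPM in co-treated cells and 26.5 ± 4.65 CPM in control cells. The groups did not overlap at either site. The 2 transcripts that start at 53866371 held 4.49%, 5.53% and 6.98% in co-treated libraries and 9.28%, 10.7% and 11.7% in control libraries. The single transcript from 53865628 held 6.38%, 5.02% and 5.48% in co-treated libraries and 8.80%, 4.85% and 4.42% in control libraries, and these overlapped. The transcript from 53868545 stayed at 1.30% or less in every library.

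**Figure D3:**
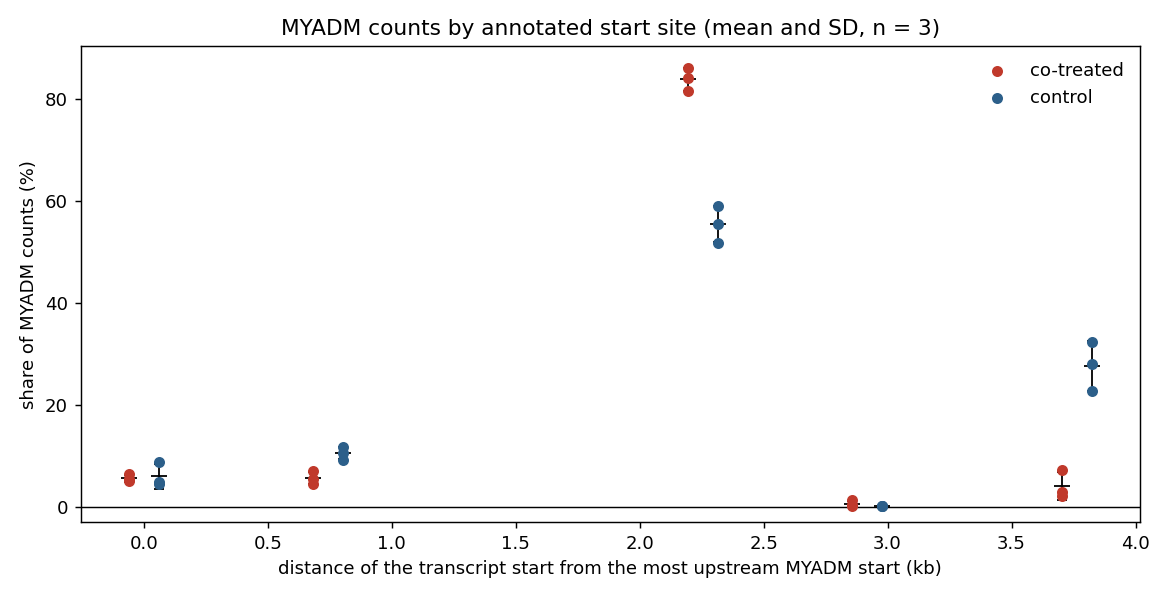
The share of MYADM counts (%, y axis) is plotted by annotated transcript start, as distance in kb from the most upstream start (x axis), with co-treated libraries in red left of control libraries in blue and black bars for the mean and SD (n = 3). The site with most counts held 81.6% to 86.1% in co-treated cells and 51.9% to 59.1% in control cells, and the most downstream site held 2.08% to 7.34% in co-treated cells and 22.7% to 32.4% in control cells.

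The windows before these MYADM starts were searched on both strands for GGGCGG (the Sp1 motif), CACGTG (the E-box), GCGTG (the core of the element bound by the aryl hydrocarbon receptor), TATAAA (the TATA box) and CCAAT (the CCAAT box). The window before 53867883 was 72.8% G and C with 19 CpG dinucleotides, and that before 53869391 was 70% G and C with 16. Over all 35116 promoter windows of the same length the medians were 58% and 11. GGGCGG matched 6 times before 53867883 and 2 times before 53869391, and 42.6% of all windows hold it. GCGTG matched 2 times before 53867883 and 1 time before 53869391, and 32.2% of all windows hold it. TATAAA matched 1 time, before 53869391, and 10.7% of all windows hold it. That match reads TTTATA in the printed window, so it lies on the strand opposite to MYADM. CACGTG, in 6.34% of all windows, and CCAAT, in 32.0%, matched in neither, and matches of different motifs did not overlap. These are matches of letters, and binding was not measured.

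Gene totals moved less than the transcripts did. PPFIA1 had 111, 106 and 109 CPM in co-treated libraries and 94.7, 93.6 and 93.3 CPM in control libraries, a log2 fold change of 0.21 ± 0.04. Here and below, the ± of a log2 fold change is an SE worked back from that fold change and edgeR's F statistic. MYADM had 112, 109 and 114 CPM in co-treated libraries and 96.6, 96.2 and 93.4 CPM in control libraries, a log2 fold change of 0.23 ± 0.04. Both were higher in every co-treated library than in any control library. PEF1 had 41.1, 48.3 and 48.5 CPM in co-treated libraries and 51.8, 54.3 and 57.8 CPM in control libraries, a log2 fold change of -0.25 ± 0.07, and was lower in every co-treated library. The CPM of the groups did not overlap for 47.4% of the 16557 genes tested, so the 3 genes' separation in totals is a common one here, and nothing is read from it.

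The size of the PEF1 difference depended on the unit. Its gene total by FPKM was 16.6, 22.4 and 23.7 in co-treated libraries and 28.8, 30.3 and 31.9 in control libraries, a log2 ratio of means of -0.54, against -0.25 by CPM. The mean annotated length per PEF1 molecule was 2109 ± 235 bases in co-treated cells and 1614 ± 15.5 bases in control cells (SD, n = 3 each). For PPFIA1 that length was 5240 ± 34.7 bases in co-treated cells and 5240 ± 18.6 bases in control cells. The log2 ratio by FPKM was 0.29 for PPFIA1 and 0.33 for MYADM, beside a median of 0.08 over 16554 genes.

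**Figure D4:**
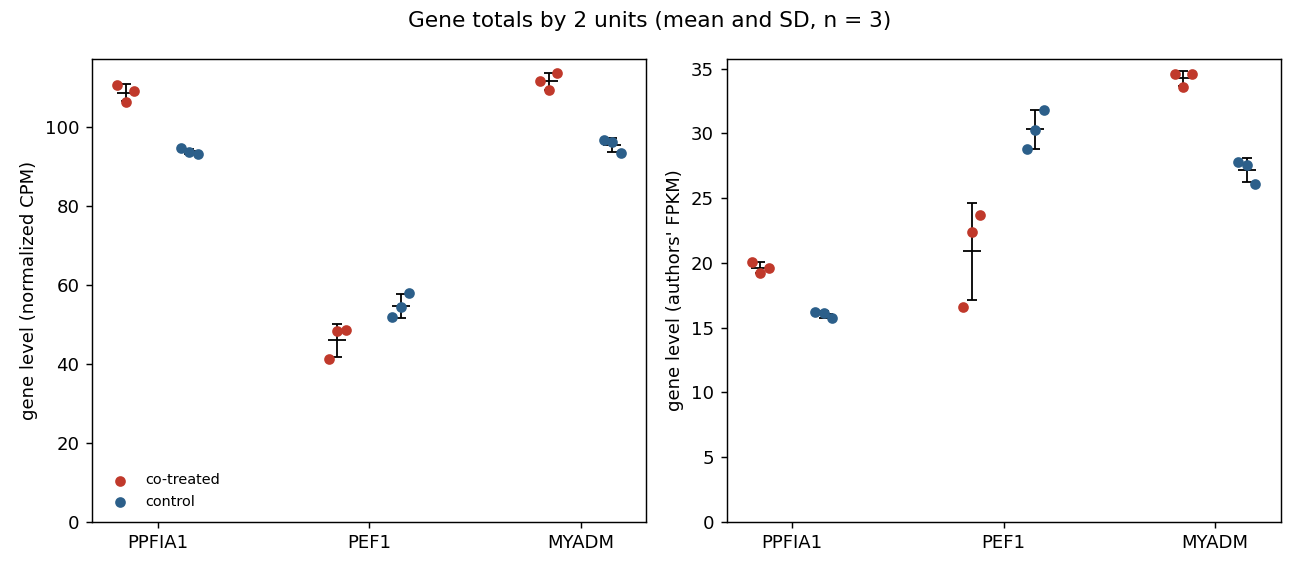
Gene totals of PPFIA1, PEF1 and MYADM (x axis) are shown as normalized CPM (left, y axis) and as the authors' FPKM (right, y axis), with co-treated libraries in red left of control libraries in blue and black bars for the mean and SD (n = 3). PPFIA1 and MYADM lie higher in co-treated cells in both units, and the PEF1 groups lie further apart in FPKM (16.6 to 23.7 in co-treated cells and 28.8 to 31.9 in control cells).

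The 3 genes were set beside all 9961 genes with at least 2 transcripts that passed the count filter. For each gene the lead transcript is the one with the largest difference in mean share between the groups. The median absolute difference over these genes was 7.07 points, and the median of the mean within-group SD was 6.42 points. The difference is the largest of each gene and is between group means, while the SD is over single libraries. The 2 medians are therefore unlike measures. PPFIA1 had rank 20, PEF1 rank 115 and MYADM rank 966 by absolute difference, with mean within-group SDs of 9.61, 8.03 and 2.06 points in the same order. A difference of at least 10 points was found in 35.6% of all genes, one of at least 20 points in 12%, a lead transcript without overlap of the groups in 21.6%, and both together in 4.46%. All 3 genes met each of these conditions, and since they were chosen from this measure nothing is read from that. In limma's diffSplice test of transcript usage over the same genes, 2.29% had an adjusted p under 0.05 (Benjamini-Hochberg).

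**Figure D5:**
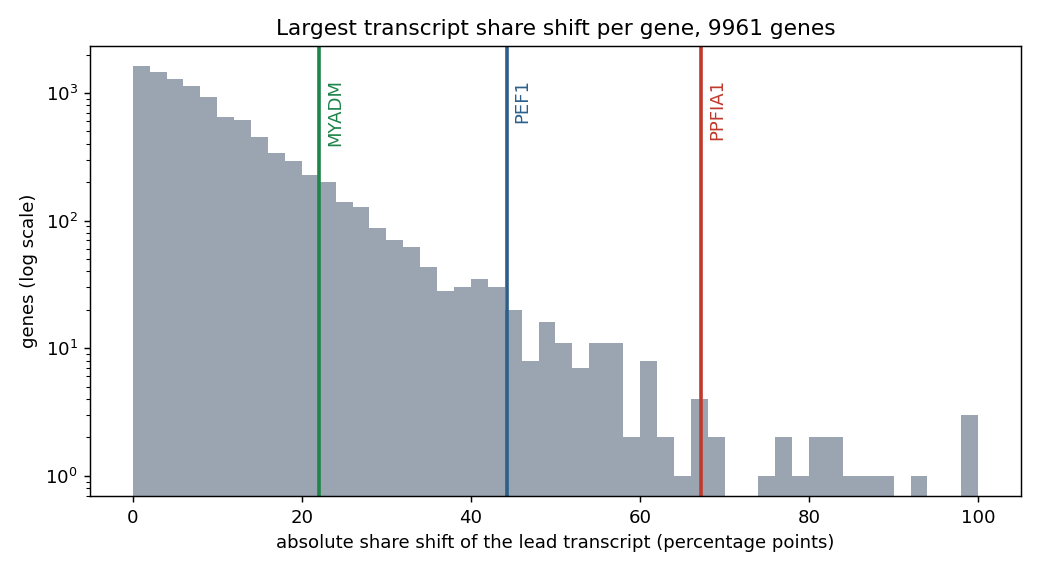
The histogram counts genes (y axis, log scale) by the absolute difference in mean share of their lead transcript between co-treated and control cells (x axis, percentage points) over 9961 genes, and vertical lines mark MYADM at 22.0, PEF1 at 44.2 and PPFIA1 at 67.2 points. Most genes lie at low values (median 7.07 points), and all 3 lines stand above that median.

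Transcripts that RefSeq lists as predicted models made up much of the PPFIA1 and PEF1 counts in co-treated cells. Predicted models, 17 of the 21 transcripts, held 72.5% ± 14.8 of PPFIA1 in co-treated cells and 15.6% ± 7.80 in control cells. For PEF1 they are 5 of 8 transcripts and held 49.3% ± 15.1 in co-treated cells and 3.23% ± 0.0678 in control cells (SD, n = 3 each). Over the counts of all genes, predicted models held 13.5% to 13.9% in co-treated libraries and 12.6% to 13.4% in control libraries. MYADM has no predicted model in the table.

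Other genes had lead transcripts with a similar course over the 6 libraries. Among 8705 candidates, the smallest mean absolute difference from the NM_003626 share of PPFIA1 was 10.6 points, for XM_011533824 of SFMBT1, followed by NSD2 at 13.3 and ARID3A at 13.4 points. In SFMBT1 the share was 0.308%, 51.7% and 0.884% in co-treated libraries and 82.5%, 65.3% and 75.8% in control libraries. NSD2 had 11.4%, 48.8% and 6.76% in co-treated libraries and 60.1%, 59.2% and 73.4% in control libraries. ARID3A had 0.490%, 22.8% and 0% in co-treated libraries and 99.3%, 34.0% and 98.1% in control libraries. These genes were picked for likeness to NM_003626 in the same 6 libraries. A higher share in co-treated library 2 is therefore part of the choice, and nothing is read from it. For PEF1 the nearest were MRTFB at 7.84, NRDE2 at 7.93 and SPRING1 at 8.35 points. For MYADM they were MELTF at 4.04, TPD52L2 at 4.20 and MEMO1 at 4.27 points. SPRING1, for one, had its predicted model XM_024449189 at 64.6%, 49.1% and 17.0% in co-treated libraries and 13.9%, 5.64% and 14.0% in control libraries.

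The families and partners of the 3 genes were read from the gene-level test, edgeR's quasi-likelihood test with Benjamini-Hochberg adjustment at 0.05, in which 33.7% of 16557 genes passed, 16.6% higher and 17.1% lower in co-treated cells. The direction of those calls leaned on the scaling, with 2743 higher and 2835 lower in this test, 3816 higher and 2065 lower with library size alone, and 4516 higher and 1339 lower on log2(TPM + 1). The median log2 fold change over all genes was 0.0024. By list, the share called was 66.7% for the liprin family, 56% for liprin partners and 81.8% for penta-EF-hand and calpain genes. It was 20% for ALG-2 and PEF1 partners, 47.1% for the MARVEL domain family and 33.3% for raft and Rac1 genes. The lists held 6 to 25 tested genes.

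Of 6 other liprin genes tested, 1 rose and 3 fell, and the median log2 fold change was -0.23. PPFIBP1, the liprin-beta-1 partner of liprin-alpha-1 and the most abundant of them, rose to 83.7 ± 2.39 CPM in co-treated cells, against 65.3 ± 4.50 CPM in control cells (log2 fold change 0.36 ± 0.06, edgeR adjusted p = 0.000731). PPFIA4, a paralogue of PPFIA1, fell to 4.65 ± 0.236 CPM, against 6.94 ± 0.182 CPM in control cells (log2 fold change -0.58 ± 0.09, edgeR adjusted p = 0.000646). KAZN, a liprin-related desmosome protein, had a log2 fold change of -0.57 ± 0.12 and PPFIA3 of -0.37 ± 0.10. The PPFIA3 call was lost without control library 3 (-0.28, edgeR adjusted p = 0.0648) and on log2(TPM + 1) (limma adjusted p = 0.171).

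Of 25 tested genes of liprin partners at adhesions and synapses, 8 rose and 6 fell, with a median of 0.05. That balance depended on the scaling, with 12 rises and 3 falls with library size alone and 12 rises and 2 falls on log2(TPM + 1). PTPRF, the LAR phosphatase itself, fell to 264 ± 9.49 CPM in co-treated cells, against 336 ± 18.2 CPM in control cells (log2 fold change -0.35 ± 0.05, edgeR adjusted p = 0.000571). PTPRS, of the same phosphatase type, went the other way, with 37.3 ± 0.531 CPM in co-treated cells and 32.1 ± 1.45 CPM in control cells. Its log2 fold change was 0.22 ± 0.05 (edgeR adjusted p = 0.00978), and its call was not followed through the alternatives. CTTN, which encodes cortactin and neighbours PPFIA1, fell to 221 ± 2.74 CPM, against 265 ± 6.65 CPM in control cells (-0.26 ± 0.04, edgeR adjusted p = 0.000919). The formin DIAPH1 had a log2 fold change of -0.18 ± 0.04 and PHLDB1, a microtubule-capture protein of the cell cortex, of -0.18 ± 0.05. Among those that rose, the active-zone scaffold ERC2 had 0.32 ± 0.09, the scaffold CASK 0.27 ± 0.07, and the kinesins KIF1B 0.25 ± 0.05 and KIF21A 0.22 ± 0.06. MACF1, a cytoskeletal linker and the most abundant of the list, had 0.16 ± 0.05. ERC2, PHLDB1 and MACF1 each lost the call when a library was left out, at edgeR adjusted p up to 0.0616 for ERC2 (without co-treated library 3, or 0.0594 without control library 1), 0.0818 for PHLDB1 (without control library 3, and also without control library 1 or co-treated library 1 or 3) and 0.0676 for MACF1 (without control library 3, and also without control library 2 or co-treated library 1). DIAPH1 and PHLDB1 were not called on log2(TPM + 1), at limma adjusted p = 0.362 and 0.591.

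Of 11 tested genes listed as penta-EF-hand and calpain genes, 4 rose and 5 fell, with a median of -0.13. PEF1 belongs to the penta-EF-hand family, and the list also takes in calpains without penta-EF-hand domains (CAPN5, CAPN7, CAPN10 and CAPN15). The calpain protease CAPN2, the most abundant, rose to 809 ± 26.5 CPM in co-treated cells, against 631 ± 8.45 CPM in control cells (log2 fold change 0.36 ± 0.04, edgeR adjusted p = 0.000128). CAPN5 rose to 26.3 ± 1.48 CPM, against 17.5 ± 1.76 CPM in control cells (0.59 ± 0.08, edgeR adjusted p = 0.000343). Grancalcin (GCA) rose by 0.34 ± 0.08 and CAPN7 by 0.28 ± 0.05 on the log2 scale. PDCD6, which encodes ALG-2, the partner of PEF1, had 50.5 ± 1.51 CPM in co-treated cells and 58.5 ± 6.29 CPM in control cells (-0.21 ± 0.07, edgeR adjusted p = 0.0364). Without control library 3, which was the highest at 65.7 CPM, the PDCD6 value was -0.12 with an edgeR adjusted p of 0.120, and the call was also lost without any 1 of the co-treated libraries. CAPN15 had -0.33 ± 0.06 and CAPNS1, the small regulatory calpain subunit, -0.21 ± 0.05. CAPN3, at 0.132 CPM in co-treated cells and 0.304 CPM in control cells, had -1.17 ± 0.40 and kept its call only without control library 2 among the leave-outs, with adjusted p up to 0.158 in edgeR without control library 3. On log2(TPM + 1), 5 of the list passed limma's test in place of 9, with 4 rises and 1 fall (4 and 2 in edgeR with library size alone), and CAPNS1 was among those not called (limma adjusted p = 0.222).

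Of 25 tested partners of ALG-2 and PEF1 in COPII coats and in the ESCRT pathway, 4 rose and 1 fell, with a median of 0.04. SEC13, a subunit of the outer COPII coat, fell to 134 ± 4.59 CPM in co-treated cells, against 177 ± 11.8 CPM in control cells (log2 fold change -0.40 ± 0.05, edgeR adjusted p = 0.000339). MAPK1IP1L, an ALG-2 binding protein, rose to 262 ± 5.87 CPM, against 217 ± 16.7 CPM in control cells (0.28 ± 0.06, edgeR adjusted p = 0.00363). The ESCRT adaptor PDCD6IP (ALIX), the most abundant, had 0.15 ± 0.05, and the COPII subunits SEC31B and SEC24B had 0.18 ± 0.06 and 0.15 ± 0.05. These 3 lost their calls when a library was left out: PDCD6IP without control library 1 or 3 or co-treated library 1 or 2 (edgeR adjusted p up to 0.0874), SEC31B without any library other than co-treated library 3 (up to 0.144), and SEC24B without any 1 library (up to 0.135). The list's count was 2 without control library 1 or 3 or co-treated library 1 or 2, and 3 without control library 2. It was 16 on log2(TPM + 1), 15 of them rises. CUL3 and KLHL12, the ubiquitin ligase and its adaptor that PEF1 and ALG-2 bind, had log2 fold changes of 0.06 ± 0.05 and 0.07 ± 0.05, and neither passed the test (edgeR adjusted p = 0.402 and 0.310).

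Of 17 tested MARVEL domain genes other than MYADM, 5 rose and 3 fell, with a median of 0.10 (7 and 2 with library size alone, 8 and 2 on log2(TPM + 1)). MALL, a raft protein of the MAL family, rose to 14.3 ± 0.930 CPM in co-treated cells, against 9.59 ± 0.876 CPM in control cells (log2 fold change 0.57 ± 0.09, edgeR adjusted p = 0.000617). CMTM6, known as a stabilizer of PD-L1 and the most abundant of the list, rose to 241 ± 6.89 CPM, against 205 ± 9.32 CPM in control cells (0.23 ± 0.05, edgeR adjusted p = 0.00364). PLLP, plasmolipin, fell to 2.77 ± 0.343 CPM, against 4.30 ± 0.445 CPM in control cells (-0.63 ± 0.13, edgeR adjusted p = 0.00376). SYNGR1, a synaptic vesicle protein, had -0.34 ± 0.07, SYPL2 -0.26 ± 0.09, CMTM8 0.25 ± 0.07 and MARVELD1 0.24 ± 0.06. MARVELD1 lost its call without co-treated library 2 (edgeR adjusted p = 0.0545), and CMTM8 without control library 1 or 3 or co-treated library 3, at up to 0.0725. SYPL2 lost it without any library other than co-treated library 2, at up to 0.127.

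Of 15 tested genes of lipid rafts and of Rac1 at the membrane, 3 rose and 2 fell, with a median of -0.05 (5 and 2 with library size alone, 6 and 1 on log2(TPM + 1)). ARF6, a small GTPase of membrane traffic, rose to 373 ± 8.93 CPM in co-treated cells, against 295 ± 8.60 CPM in control cells (log2 fold change 0.34 ± 0.04, edgeR adjusted p = 0.000236). The caveolae genes did not move together. CAV2 had 0.33 ± 0.05, CAV1 -0.22 ± 0.05 and CAVIN2 -0.32 ± 0.05, all of them called, although CAV1 was not called on log2(TPM + 1) (limma adjusted p = 0.258). CAVIN1, the coat protein of caveolae, had 904 ± 42.7 CPM in co-treated cells and 982 ± 44.5 CPM in control cells (-0.12 ± 0.05, edgeR adjusted p = 0.0811). The actin-membrane linker RDX had 0.21 ± 0.05. RAC1 had 306 ± 5.48 CPM in co-treated cells and 318 ± 4.30 CPM in control cells (-0.05 ± 0.04, edgeR adjusted p = 0.343).

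Genes within 250 kb of each of the 3 genes were read from the same test, in which 33.7% of all 16557 genes passed. The numbers of neighbours tested are small, and nothing is read from the counts. Near PPFIA1, 4 of 15 genes were tested, and CTTN fell. FADD, the nearest tested gene on the other side, had 50.3 ± 3.00 CPM in co-treated cells and 52.5 ± 2.06 CPM in control cells (log2 fold change -0.06 ± 0.06, edgeR adjusted p = 0.429). The locus LOC107984347, which overlaps PPFIA1, had 0.412 ± 0.201 CPM in co-treated cells and 0.621 ± 0.0580 CPM in control cells (edgeR adjusted p = 0.209), low beside PPFIA1. Near PEF1, 6 of 18 genes were tested, 2 rose and 2 fell. The nearest tested gene on each side was TINAGL1, which encodes a matricellular protein, and COL16A1, a collagen gene. TINAGL1 had 0.19 ± 0.06 (edgeR adjusted p = 0.0362) and COL16A1 -0.43 ± 0.12 (edgeR adjusted p = 0.0214). TINAGL1 lost its call without control library 1 or 2 or co-treated library 2 or 3 (edgeR adjusted p up to 0.138), and COL16A1 without control library 2 or 3 or co-treated library 1 (up to 0.0712). The other called neighbours, farther away, were SPOCD1, with -0.74 ± 0.09 (edgeR adjusted p = 0.000196), and ADGRB2, with 0.48 ± 0.09 (edgeR adjusted p = 0.00176). HCRTR1 and PEF1-AS1, which overlap PEF1, were at 0 in all libraries. Near MYADM, 8 of 70 genes were tested, 1 rose and 3 fell. CACNG7 rose, with 0.50 ± 0.11 (edgeR adjusted p = 0.00506). PRPF31 had -0.46 ± 0.06 (edgeR adjusted p = 0.000187) and NDUFA3 -0.36 ± 0.09 (edgeR adjusted p = 0.0112). VSTM1, at 0.975 CPM in co-treated cells and 1.80 CPM in control cells, had -0.88 ± 0.17 (edgeR adjusted p = 0.00282). The overlapping MYADM-AS1 reached at most 0.0817 CPM in co-treated libraries and 0.0859 CPM in control libraries. The sources used here do not give whether the libraries kept strand, and counts of overlapping genes can then not be told apart by strand.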

How the data were processed

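RNA sequencing of 6 MDA-MB-231/RR samples was used as deposited. The submitters' processing notes name Trimmomatic 0.38, HISAT2 2.1.0, Bowtie2, SAMtools 1.9, StringTie 2.1.3b and GRCh38, without roles. The authors deposited a gene table and a transcript table with estimated counts, FPKM and TPM, per the file headers. FPKM and TPM deposited by the authors are per length. The transcript lengths deposited by the authors are in bases. Reads shared by transcripts were apportioned by an estimate, so shares of near-identical transcripts can trade between libraries, and intervals from counting alone were not given. Columns that begin with Con were taken as control and those with Mo as co-treated, a reading the labels do not spell out.

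The members and gene lists were chosen with earlier results of these data known. The share of a transcript is its estimated count over the gene's sum. Gene tests used edgeR 4.0.16 (quasi-likelihood, relative log expression factors, filterByExpr with minimum count 10, Benjamini-Hochberg at 0.05) in R 4.3.3, and CPM uses the same factors. Transcript usage was tested with limma 3.58.1 (voom, diffSplice). As alternatives, library size alone, TMM factors, other filters, DESeq2 1.42.0, the replicate number as a block, limma on log2(TPM + 1) and log2(TPM + 0.1), and leaving out each library were tried. Tests were tried on simulated data first. Named from each list are up to 4 called genes per direction by log2 fold change and the most abundant by CPM. PTPRS, CUL3, KLHL12, RAC1, SPOCD1, ADGRB2, CACNG7, PRPF31, VSTM1 and NDUFA3 were added after their values were seen. Neighbours named are the tested genes that overlap a member or are nearest on each side. Of the 26 names listed for ALG-2 and PEF1 partners, 25 matched a symbol, and the other, MISSL, is a further name of MAPK1IP1L, which is in the list. Promoter windows are RefSeq's for GRCh38, and exons and the PPFIA1 sequence are from GENCODE. No pair of libraries of a group agreed within sampling noise (11.6 to 19.0 for chi-square over its degrees of freedom). The result of 1 gene is not reported here.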

Additional observations from a re-analysis of the deposited data

How the results depend on the processing

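The differences in share kept their sign under every alternative run. Leaving out each library in turn gave -72.6 to -62.5 points for NM_003626 of PPFIA1, 35.5 to 51.0 for XM_017001681 of PEF1 and 20.9 to 23.2 for NM_138373 of MYADM. The PEF1 value was 29.9 points by share of FPKM and by share of TPM. Sums chosen after seeing the data gave, over the same leave-outs, 60.4 to 71.2 points for the PPFIA1 transcripts that fit the 30-base exon, -26.2 to -21.3 for MYADM starts at 53869391 and 26.6 to 30.2 for those at 53867865 or 53867883. Genes with a usage call numbered 228, against 94 with edgeR's diffSpliceDGE, 198 at minimum count 50 and 181 to 276 with a library left out. Gene-level calls numbered 5578, against 4223 to 4820 with a library left out. The count of 9 for penta-EF-hand and calpain genes was 5 on log2(TPM + 1) and on log2(TPM + 0.1), and 6 to 8 with a library left out. The count of 5 for ALG-2 and PEF1 partners was 8 with library size alone, 3 without the count filter, 16 on both TPM scales, and 2 to 4 with a library left out. CAVIN1 (0.0089 on both TPM scales) and FADD (0.0669 and 0.0678) changed sign there, beside a median of all genes of 0.09 and 0.12. The cause was not tested. Of 44 genes named by rule, 25 kept their side of the threshold under all alternatives and 19 did not. Each gene held 2242 or more estimated counts in every library, and what depth and the apportioning of reads between near-identical transcripts do to the shares was not tested.

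The correlations of same-number deviations were 0.07, 0.00045 and -0.04, and only the libraries numbered 1 correlated best with their own number. With 3 libraries per group such correlations cannot exclude a pairing by number, so whether the numbers pair the libraries was not settled. With the number as a block, 6367 genes and 199 usage calls passed, and CAVIN1 was called (edgeR adjusted p = 0.0231). The block left the mean differences in share as they were, with SDs of same-number differences of 18.7 points for PPFIA1, 15.7 for PEF1 and 3.10 for MYADM.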
